A study of Mus musculus with 1307 samples.

Results

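Small leucine-rich proteoglycans are secreted matrix proteins that bind collagen fibrils, and 10 genes of the family were followed here in single cells of the mouse heart. They were Dcn (decorin), Bgn (biglycan) and Aspn (asporin) of class I, Lum (lumican), Fmod (fibromodulin), Prelp, Kera (keratocan) and Omd (osteomodulin) of class II, Ogn (osteoglycin) of class III and Chad (chondroadherin) of class IV. The genes were chosen by symbol, and each matched 1 of the 46517 rows of the count table. The study profiled 1307 cells of 8 adult mice (8 to 30 weeks of age) by Smart-Seq2, a full-length cDNA method, after enzymatic dissociation of the heart and sorting of single cells into plates. No animal was labelled as treated. Of these mice, 3 were of the strain ACTA2GFP:CSPG4dsRED, named for fluorescent reporters of the smooth muscle gene Acta2 and the mural cell gene Cspg4, and gave 368, 245 and 336 cells (mice 1, 2 and 3 below). One C57BL/6 mouse without a named reporter gave 347 cells, and the other 4 mice, of C57BL/6, CSPG4dsRED or ACTA2GFP strain, gave 11 cells together. Each of the 4 large mice had a plate of its own, so mouse and plate cannot be told apart, and the sources used here do not give the sort gate. The design text describes the mice as male, whereas the labels of mouse 3 give female.

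These proteins share a core of leucine-rich repeats that curves around ligands, and most carry chondroitin, dermatan or keratan sulfate chains. Decorin, lumican and fibromodulin are known for setting the diameter and spacing of collagen fibrils, and biglycan also acts as a signal to innate immune receptors when it is released from the matrix. In the heart they are textbook products of fibroblasts, and the collagen-rich layers of valves are known to hold several of them. Keratocan is best known from the cornea and chondroadherin from cartilage.

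Cells were grouped by marker genes, none of which is a member, with levels in CPM, the counts of a gene scaled to a library of 1000000. Fibroblasts were valve-like where Wif1 + Prg4 + Angptl7 reached 500 CPM, interstitial where Pdgfra + Tcf21 reached 300 CPM, and dual where both did. Smooth muscle cells had at least 2000 CPM of Acta2 + Myh11 and under 500 of Kcnj8 + Abcc9, and were split at 500 CPM of Rgs5. Pericytes, the mural cells of capillaries, had the reverse, and cells that reached both were called intermediate mural. The 3 double-reporter mice held 8, 23 and 139 interstitial, 41, 43 and 26 valve-like, 53, 31 and 3 Rgs5-low and 72, 43 and 17 Rgs5-high smooth muscle cells and 36, 13 and 7 pericytes. A class entered a mouse's values from 5 cells, which leaves Rgs5-low cells with mice 1 and 2. Of all cells, 213 passed gates of more than 1 family and 48 passed none, and neither entered a main test.

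Several members lie side by side in the genome. On chromosome 10 of the GRCm38 build, Dcn (97479609 to 97518143), Lum (97565128 to 97572703) and Kera (97606879 to 97613692) follow each other on the forward strand with gaps of 46.98 and 34.2 kb, and Epyc (epiphycan, another member of the wider family) is the next gene after Kera. On chromosome 13, Aspn (49544443 to 49567565), Omd (49582462 to 49592822) and Ogn (49608046 to 49624501) lie within gaps of 14.9 and 15.2 kb, next to the related Ecm2. Prelp (chromosome 1, 133910304 to 133921414, reverse strand) and Fmod (134037254 to 134048277, forward) lie 116 kb apart. Bgn is on chromosome X (73483602 to 73495933) and Chad on chromosome 11 (94565047 to 94569127). Prelp shares 350 exonic bases with the antisense gene Gm15851, and since the sources used here name no strand setting for the counting, reads from that stretch cannot be told apart. Gm15851 itself was at 260 CPM in interstitial and 893 CPM in valve-like cells. Aspn shares 7 exonic bases with Cenpp, a centromere gene on the other strand.

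The start regions of 5 members are shown here to see whether they share a core promoter element. Chad and Bgn were called between fibroblast types or smooth muscle classes. Fmod, Prelp and Ogn were not called but had sums without overlap in at least 1 of these comparisons. The same holds for Aspn, Omd and Kera, whose windows were searched but are not printed. Each run holds 250 bases before to 50 after the start of the gene, from RefSeq in the GRCm38.p6 build, and capitals mark each match to TATAAA on either strand. The RefSeq promoter table held 8 of the 10 members, and those of Dcn and Lum are named only. Fmod spans chr1:134037004-134037303 (forward), Prelp chr1:133921352-133921651 (reverse), Chad chr11:94564797-94565096 (forward), Bgn chrX:73483351-73483650 (forward) and Ogn chr13:49607765-49608064 (forward).
Fmod: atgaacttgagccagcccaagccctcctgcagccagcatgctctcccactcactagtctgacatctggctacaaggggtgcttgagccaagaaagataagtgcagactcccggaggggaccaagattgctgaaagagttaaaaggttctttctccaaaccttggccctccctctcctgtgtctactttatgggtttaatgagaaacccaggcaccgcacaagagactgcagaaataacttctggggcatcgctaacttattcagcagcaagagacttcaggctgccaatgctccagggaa
Prelp: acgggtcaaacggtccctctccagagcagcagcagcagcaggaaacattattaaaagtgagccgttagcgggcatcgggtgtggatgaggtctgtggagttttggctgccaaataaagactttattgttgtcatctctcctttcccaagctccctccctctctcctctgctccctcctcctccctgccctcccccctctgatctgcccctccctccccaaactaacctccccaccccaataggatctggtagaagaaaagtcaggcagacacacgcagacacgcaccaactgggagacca
Chad: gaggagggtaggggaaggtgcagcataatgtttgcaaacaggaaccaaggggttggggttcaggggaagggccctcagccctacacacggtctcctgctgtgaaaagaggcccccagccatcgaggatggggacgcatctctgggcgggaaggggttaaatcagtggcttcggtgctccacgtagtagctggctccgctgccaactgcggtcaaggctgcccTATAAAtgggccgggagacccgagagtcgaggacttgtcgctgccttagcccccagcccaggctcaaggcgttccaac
Bgn: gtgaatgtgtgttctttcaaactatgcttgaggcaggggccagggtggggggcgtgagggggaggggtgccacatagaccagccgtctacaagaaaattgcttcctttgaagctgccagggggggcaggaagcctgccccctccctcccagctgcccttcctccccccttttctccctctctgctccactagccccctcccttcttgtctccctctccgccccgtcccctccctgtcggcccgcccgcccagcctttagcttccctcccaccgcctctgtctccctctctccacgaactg
Ogn: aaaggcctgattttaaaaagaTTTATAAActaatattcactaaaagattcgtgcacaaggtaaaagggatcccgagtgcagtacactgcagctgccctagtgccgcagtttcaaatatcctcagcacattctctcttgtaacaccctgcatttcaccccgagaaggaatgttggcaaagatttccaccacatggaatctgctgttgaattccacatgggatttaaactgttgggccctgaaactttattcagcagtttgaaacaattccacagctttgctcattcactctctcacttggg

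TATAAA occurred in the windows of Ogn, Aspn and Chad and in none of those of Fmod, Prelp, Bgn, Omd and Kera, while 13.6% of all 32851 promoters in the table hold it. In Chad the match starts at base 223 of the window, just before the annotated start, whereas in Ogn it lies near the far end, at base 22. The AP-1 motif TGANTCA was in none of the 8 windows (7.81% of all promoters). CCAAT was in those of Fmod, Prelp, Aspn and Kera (37.4% of all promoters). The SOX-type motif ACAAT was in those of Ogn, Prelp, Aspn, Omd and Kera (31.0% of all promoters). The E-box CANNTG, searched on both strands like the others, had 4 matches in Ogn, 2 in Aspn and 1 each in Fmod, Prelp, Bgn and Chad (72.3% of all promoters have at least 1). A match is a string of letters and no evidence of binding.

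Among the gated classes, the family made up its largest shares of counts in the fibroblast types. The 10 genes together took 2.96% ± 0.757 (SD, n = 3 mice) of all counts in valve-like and 1.80% ± 0.387 in interstitial fibroblasts. Their share was 0.884% ± 0.106 (n = 2) in Rgs5-low and 0.362% ± 0.0299 (n = 3) in Rgs5-high smooth muscle cells and 0.681% ± 0.185 in pericytes. Intermediate mural cells had 0.557% ± 0.0759 (n = 3). Schwann cells had 0.175% ± 0.0319, and endothelial cells of the C57BL/6 mouse 0.0451%. Endocardial cells of the same mouse, without a replicate, had 0.534%, above the Rgs5-high share.

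**Figure D1:**
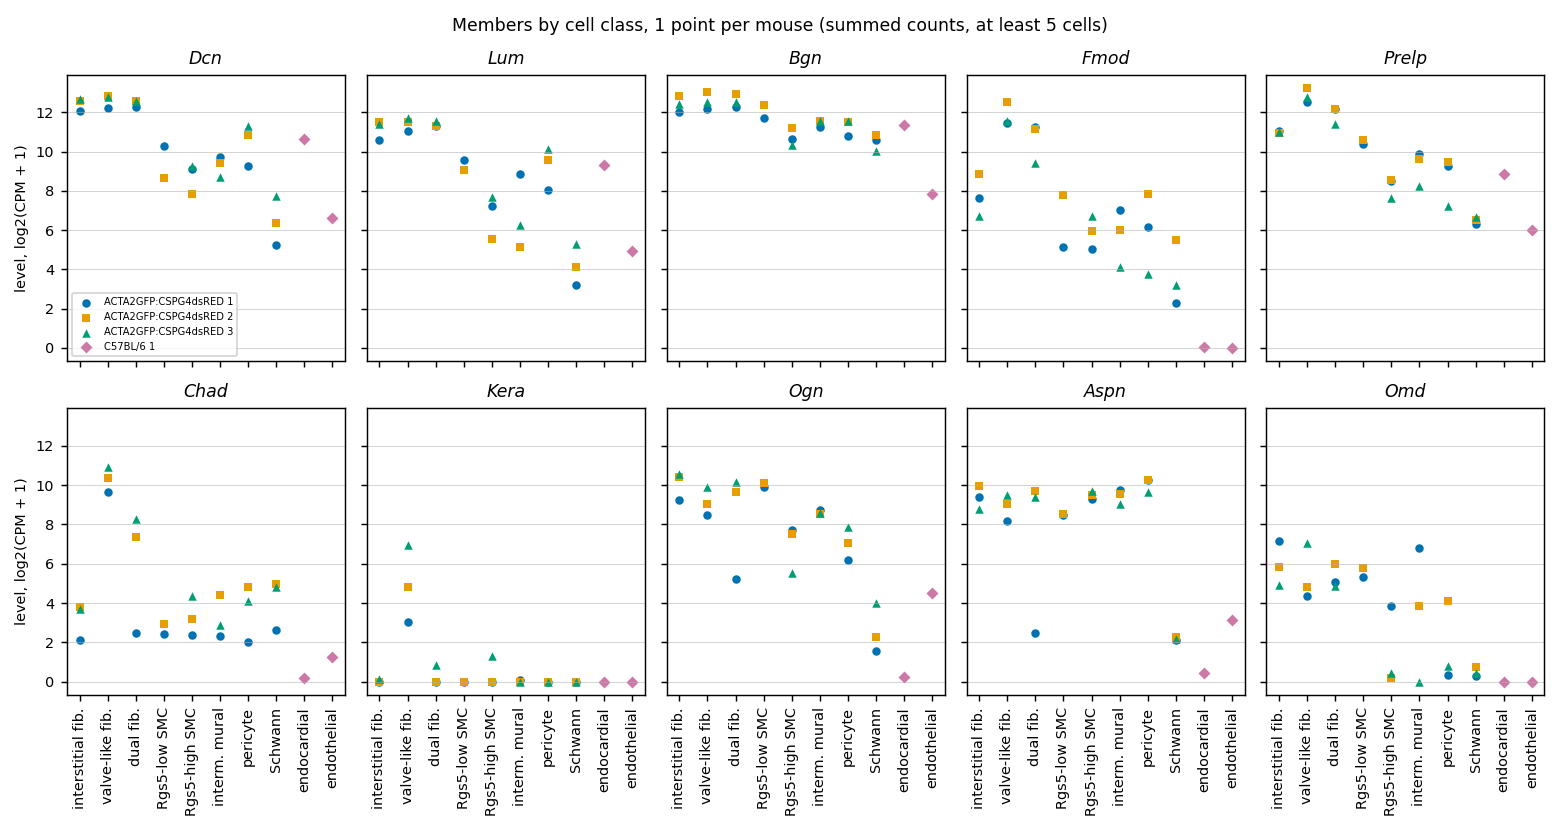
Levels of the 10 members, as log2(CPM + 1) of the counts summed per mouse and class, with 1 symbol per mouse and classes along the horizontal axis. Dcn, Lum and Bgn are high in all fibroblast types, Chad stands out in valve-like cells (796 to 1980 CPM), and Aspn has its highest mean in pericytes (795 to 1227 CPM), where mouse 3 lies below its Rgs5-high cells (848 CPM).

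The cells differed in depth from 50476 to 811982 counts, with a median of 274702, and all values below come from counts summed per mouse. The fibroblast marker list (Col1a1, Col1a2, Col3a1, Dpt, Pi16; all 5 detected in each sum of fibroblasts and mural cells) summed to between 7617 and 14338 CPM in valve-like and interstitial sums. Of the valve markers, Hapln1 averaged 43.4 CPM in valve-like and 0.0289 in interstitial cells, and Comp 2468 and 234 CPM, while Postn did not separate them (2180 and 2273 CPM). In the C57BL/6 mouse, 30 cells passed the valve gate through Prg4 alone, with a median of 0 CPM of Wif1 and Angptl7, and 29 of them also passed the endothelial gate, so that they went to the mixed cells. Low counts of a member did not mark a cell type: Dcn had at least 1 count in all 64 Schwann cells of the double-reporter mice, at 36.5, 81.0 and 212 CPM. Shares of cells are therefore given from 100 CPM, and, for members other than Bgn, levels at or below those of Schwann cells are not read as a mark of a class.

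Interstitial and valve-like fibroblasts were compared to see whether the family separates the fibroblast types. Chondroadherin was far lower in interstitial than in valve-like cells, while decorin, lumican and biglycan had overlapping levels. The class II genes Fmod and Prelp had every valve-like sum above every interstitial sum, but missed the threshold. Of the 10 members, Chad passed the test (lower in interstitial cells), against 0.0796% of 16333 genes called lower and 0.0796% called higher.

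Dcn stood at 4277, 6219 and 6461 CPM in interstitial and at 4848, 7430 and 6954 CPM in valve-like cells of mice 1, 2 and 3. Mouse 1 was lowest in both types, and the types overlapped. The log2 change, interstitial minus valve-like, was -0.20 with an SE of 0.500 (edgeR adjusted p = 1). Lum, at 1559, 2957 and 2695 against 2153, 2965 and 3309 CPM, differed by -0.20 (SE 0.742), and Bgn, at 4147, 7340 and 5460 against 4633, 8374 and 5910 CPM, by -0.17 (SE 0.155). All cells of both types had at least 100 CPM of Dcn and of Bgn.

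Aspn, which binds collagen and calcium, was at 682, 979 and 445 CPM in interstitial and 288, 523 and 717 CPM in valve-like cells, lower in valve-like cells of mice 1 and 2 and higher in mouse 3. Its change was 0.41 (SE 0.356, edgeR adjusted p = 1).

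Fmod, which binds the same collagen site as lumican, was at 196, 464 and 105 CPM in interstitial and 2814, 5888 and 2993 CPM in valve-like fibroblasts. Every valve-like sum lay above every interstitial sum, and 83.2% of the interstitial counts of mouse 2 came from 1 cell. In interstitial cells 3 of 8, 4 of 23 and 13 of 139 cells reached 100 CPM, against 37 of 41, 40 of 43 and 19 of 26 valve-like cells. The change was -4.14 (SE 0.873), with an edgeR adjusted p of 0.108. It passed the threshold in 5 of 16 alternatives, among them DESeq2 (adjusted p = 0.000171).

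Prelp, whose basic end binds heparan sulfate, was at 2141, 1947 and 2058 CPM in interstitial cells, a narrow range, and at 5903, 9843 and 7062 CPM in valve-like cells. The types did not overlap. The change was -1.87 (SE 0.371), with an edgeR adjusted p of 0.0829, and 5 of 16 alternatives called it. Per kb of exon, Prelp had the highest level of the family in valve-like cells (2103 CPM per kb ± 560), followed by Fmod (1179 ± 522), Lum (1148 ± 242), Dcn (1098 ± 235), Bgn (1034 ± 312) and Chad (816 ± 353). The ranges of mean ± SD overlapped among the last 5. These SDs are over mice, and the genes were measured in the same mice, so the overlap does not compare genes within a mouse. In interstitial cells Lum (982 ± 303), Dcn (968 ± 205) and Bgn (926 ± 263) led on the same scale, and Fmod was at 77.1 ± 56.6.

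Chad, a leucine-rich protein that binds integrin on chondrocytes, was at 3.27, 13.01 and 11.98 CPM in interstitial fibroblasts and at 796, 1336 and 1980 CPM in valve-like fibroblasts. No sum overlapped, and the ratio of the summed counts within a mouse was 243 (95% interval 136 to 488), 103 (82.5 to 130) and 165 (149.8 to 183), where the intervals cover counting error only. The change was -7.36 (SE 0.655, edgeR adjusted p = 0.000293), and all 16 alternatives called it. The interstitial level was no higher than that of Schwann cells (5.23, 30.2 and 27.4 CPM). Within the valve-like class the transcript was uneven: 11 of 41, 10 of 43 and 8 of 26 cells reached 100 CPM, and the median cell had 6.08, 14.5 and 9.63 CPM. Over the 3 mice, 29 of 110 valve-like cells (26.4%) reached 100 CPM of Chad.

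Kera was rare everywhere, with counts in 16 of 1307 cells. All 5 cells with at least 100 CPM, between 105 and 2200, were valve-like, and 2 of them also had at least 100 CPM of Chad. Its summed level was 7.17, 26.9 and 122 CPM in valve-like cells, of which a single cell gave 100%, 95.1% and 90.7%. Interstitial cells held 0, 0 and 3 counts. A count of 0 was set to the limit of 3 counts that it allows. The summed valve-like level was then at least 8.04-fold higher in mouse 1 and at least 55.1-fold higher in mouse 2. In mouse 3 the ratio was 1411 (95% interval 481 to 6859). These bounds and the interval cover counting error only. With nearly all counts in a single cell per mouse, they do not show a difference between the classes as a whole. Mouse 1 had only 8 interstitial cells to compare. The edgeR adjusted p was 0.175.

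**Figure D2:**
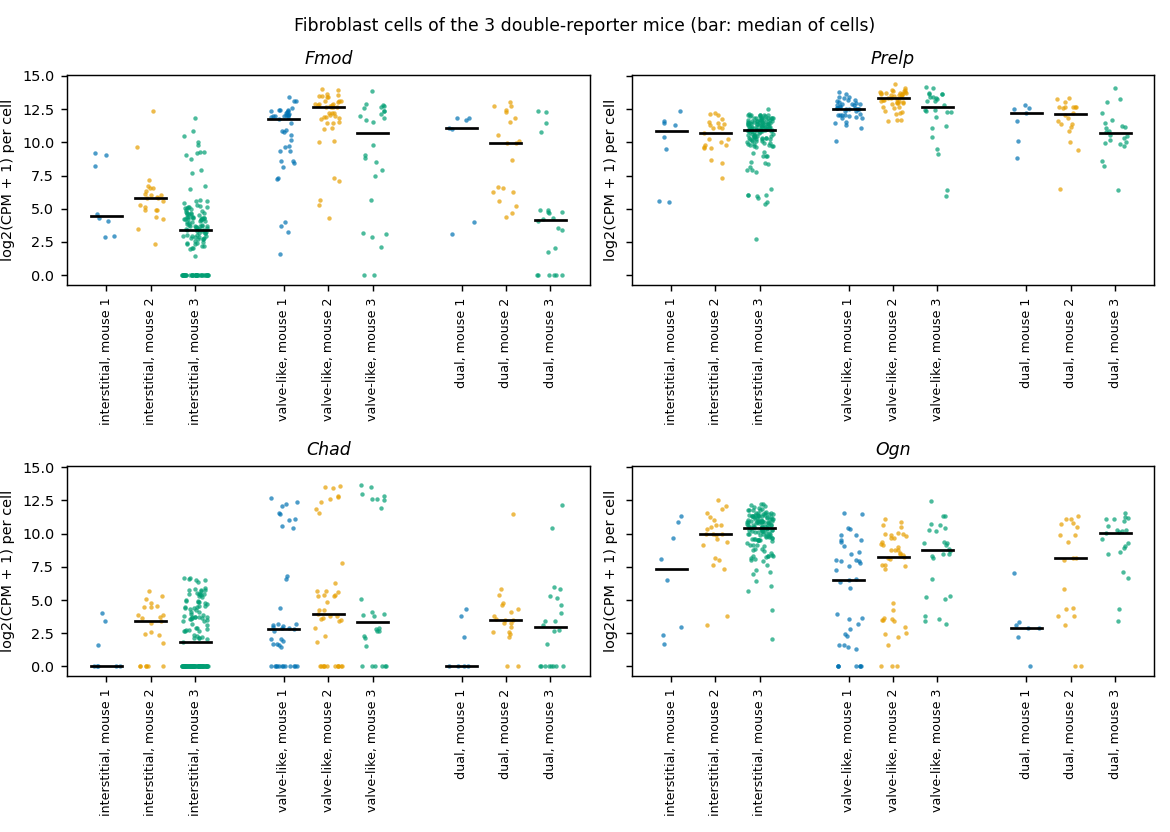
Single fibroblasts of the 3 double-reporter mice by gated type, as log2(CPM + 1) of Fmod, Prelp, Chad and Ogn, with a bar at the median of the cells. Chad splits the valve-like cells into a low majority and a separate high group in each mouse, while Prelp is shifted in nearly all cells.

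Omd, a keratan sulfate proteoglycan known from bone, was low and patchy. It stood at 141, 56.1 and 29.5 CPM in interstitial and 19.3, 26.9 and 130 CPM in valve-like cells. It reached 100 CPM in 26 of 170 interstitial and 10 of 110 valve-like cells. A single cell gave 63.8% of the valve-like counts of mouse 3, and the direction of its change (-0.88, SE 1.88) turned in 4 alternatives.

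Ogn, a class III member whose product shapes collagen fibrils, leaned the other way. It was at 599, 1377 and 1522 CPM in interstitial and 352, 519 and 947 CPM in valve-like fibroblasts, higher in interstitial cells within each mouse, although the ranges overlapped. The change was 0.95 (SE 0.521, edgeR adjusted p = 1). In mouse 3 it reached 100 CPM in 134 of 139 interstitial and 18 of 26 valve-like cells. Dual cells lay between the types for Fmod (2475, 2304 and 674 CPM) and Prelp (4559, 4602 and 2747 CPM) and had 4.51, 165 and 309 CPM of Chad, of which 1 cell gave 92.6% in mouse 2.

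At the valve gate itself some members were lower and others higher just inside it. Fibroblasts and cells that passed no gate were pooled over mice for this description. The 9 cells just inside the valve gate (500 to 750 CPM) had 151 CPM of Fmod, 1457 of Prelp and 7.31 of Chad. The 11 cells just outside it (333 to 500 CPM) had 511, 3585 and 11.8 CPM. Aspn was at 830 CPM just inside and 416 CPM just outside, Bgn at 7015 and 5473, Dcn at 6470 and 5807, and Lum at 2693 and 2293 CPM. At the gate of Pdgfra + Tcf21, the 35 cells just inside (300 to 450 CPM) had 179 CPM of Chad and the 30 just outside (200 to 300 CPM) 1136 CPM. Over the 9 members other than Kera the median change was -0.20 on the log2 scale, beside -0.0084 over all genes tested.

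Fibroblasts of both types were next set against smooth muscle cells of both Rgs5 levels. Of the 10 members, 6 were higher in the mean of both fibroblast types (Dcn, Lum, Fmod, Prelp, Bgn and Chad) and none was lower. Of all genes tested, 2.41% were called higher and 2.81% lower. The other members, Ogn, Aspn, Omd and Kera, did not pass. The median change of the 9 members other than Kera was 3.23 on the log2 scale, beside 0.17 over all genes.

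Dcn was at 1265 and 399 CPM in Rgs5-low and 556, 227 and 626 CPM in Rgs5-high cells, below every fibroblast sum. Its change was 3.27 (SE 0.438, edgeR adjusted p = 0.000361). Lum, at 755 and 536 and at 148, 45.7 and 203 CPM, changed by 3.23 (SE 0.643, edgeR adjusted p = 0.00771). Its call was lost without mouse 2 (2.58, adjusted p = 0.186). Prelp changed by 2.79 (edgeR adjusted p = 6.63e-05) and Fmod by 3.51 (edgeR adjusted p = 0.00589). Mean Fmod levels were 3898 CPM in valve-like, 255 in interstitial, 126 in Rgs5-low and 65.8 in Rgs5-high cells. Interstitial sums of Fmod overlapped the Rgs5-low ones, and only valve-like sums lay far above smooth muscle. The call of Fmod was lost without mouse 1 (adjusted p = 0.0769) and without mouse 2 (adjusted p = 0.0801). Bgn changed least of the called members, by 1.13 (SE 0.121, edgeR adjusted p = 5.25e-05), since smooth muscle sums held 1316 to 5324 CPM of it. The 3.69 of Chad (SE 0.441, edgeR adjusted p = 0.000136) came from valve-like cells, because interstitial and smooth muscle levels lay in the same range (smooth muscle 4.19 to 19.5 CPM).

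Aspn levels in mural cells overlapped those of fibroblasts, and those of Ogn and Omd did so in Rgs5-low cells. Ogn in Rgs5-high cells (44.6 to 207 CPM) lay below every interstitial and valve-like sum. Ogn changed by 0.98 (SE 0.419, edgeR adjusted p = 0.251) and Aspn by 0.24 (SE 0.267, edgeR adjusted p = 0.820). A test that misses the threshold does not show that the levels are alike.

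**Figure D3:**
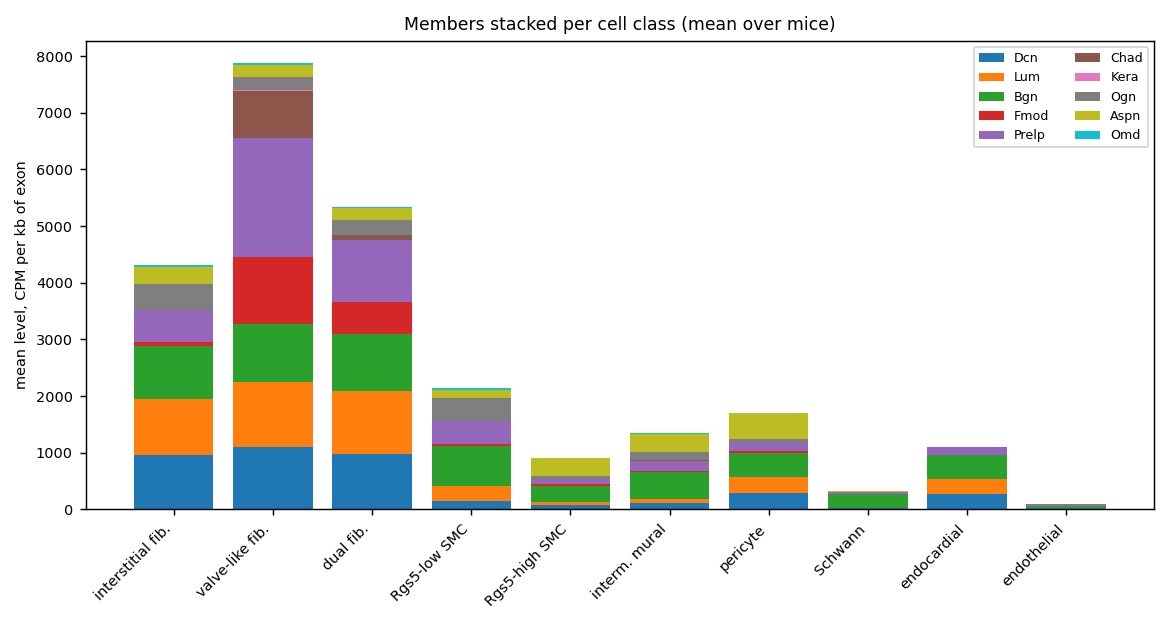
Mean level of each member per kb of exon (CPM per kb), stacked by cell class, as the mean over mice. Prelp, Fmod and Chad widen the valve-like column, Bgn, Ogn and Prelp lead in Rgs5-low smooth muscle, and Aspn and Bgn lead in Rgs5-high smooth muscle and pericytes.

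Within smooth muscle, the split by Rgs5, a regulator of G protein signalling that is abundant in small-vessel mural cells, divided the family. Bgn, Ogn and Prelp stood higher in Rgs5-low cells and Aspn stood higher in Rgs5-high cells, and of these only Bgn passed the test. That is 1 of 10 members called higher, against 0.0306% of genes called higher and 0.0429% called lower. The median change of the 9 members other than Kera was 1.24, beside -0.074 over all genes.

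Bgn was at 3364 and 5324 CPM in Rgs5-low cells of mice 1 and 2 and at 1590, 2333 and 1316 CPM in Rgs5-high cells of mice 1, 2 and 3. All Rgs5-low sums lay above all Rgs5-high sums. The change was 1.24 (SE 0.173, edgeR adjusted p = 0.0248). The call was lost in 7 of 16 alternatives, including each of the 3 fits that left out a mouse (adjusted p = 0.0704 to 0.949) and the fit without the mouse block (adjusted p = 0.557), while the change stayed between 1.15 and 1.40.

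Ogn was at 946 and 1116 CPM in Rgs5-low and 207, 181 and 44.6 CPM in Rgs5-high cells, without overlap. In Rgs5-low cells 43 of 53 and 26 of 31 cells reached 100 CPM, against 15 of 72, 8 of 43 and 1 of 17 Rgs5-high cells. The change of 2.80 (SE 0.584) had an edgeR adjusted p of 0.161. The Rgs5-low level lay within the range of interstitial fibroblasts (599 to 1522 CPM), whereas Dcn in the same cells was below it.

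Prelp was at 1328 and 1561 against 365, 378 and 201 CPM, also without overlap (1.90, SE 0.407, edgeR adjusted p = 0.175). Lum rested on few cells, with 66.4% of the Rgs5-low counts of mouse 2 in 1 cell (2.43, SE 0.869, edgeR adjusted p = 0.940). Aspn went the other way, at 354 and 373 CPM in Rgs5-low and 635, 714 and 848 CPM in Rgs5-high cells. Its ranges did not overlap, and the change was -1.14 (SE 0.418, edgeR adjusted p = 0.940). Omd was at 39.7 and 53.3 CPM in Rgs5-low cells and at 13.3, 0.114 and 0.375 CPM in Rgs5-high cells, where 1 cell gave 98.2% of the counts of mouse 1.

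Finer bins of Rgs5 kept this order, except next to the cut. In mouse 1, Bgn was at 3447, 3089, 1800 and 1229 CPM in cells with under 50, 50 to 500, 500 to 5000 and over 5000 CPM of Rgs5, and in mouse 2 at 5947, 4863, 2805 and 1913 CPM. Aspn in the same bins was at 308, 506, 612 and 673 CPM in mouse 1 and at 276, 445, 707 and 720 CPM in mouse 2. Ogn fell from 993 and 793 to 308 and 34.4 CPM in mouse 1, and stood at 1255, 1012, 160 and 200 CPM in mouse 2. At the split itself, the 8 cells with 500 to 750 CPM of Rgs5 had 1951 CPM of Bgn and 1020 of Ogn, and the 4 cells with 333 to 500 CPM had 1200 and 214 CPM. These few cells ran against the trend of the bins. Intermediate mural cells had 420, 365 and 382 CPM of Ogn and 864, 760 and 525 CPM of Aspn.

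**Figure D4:**
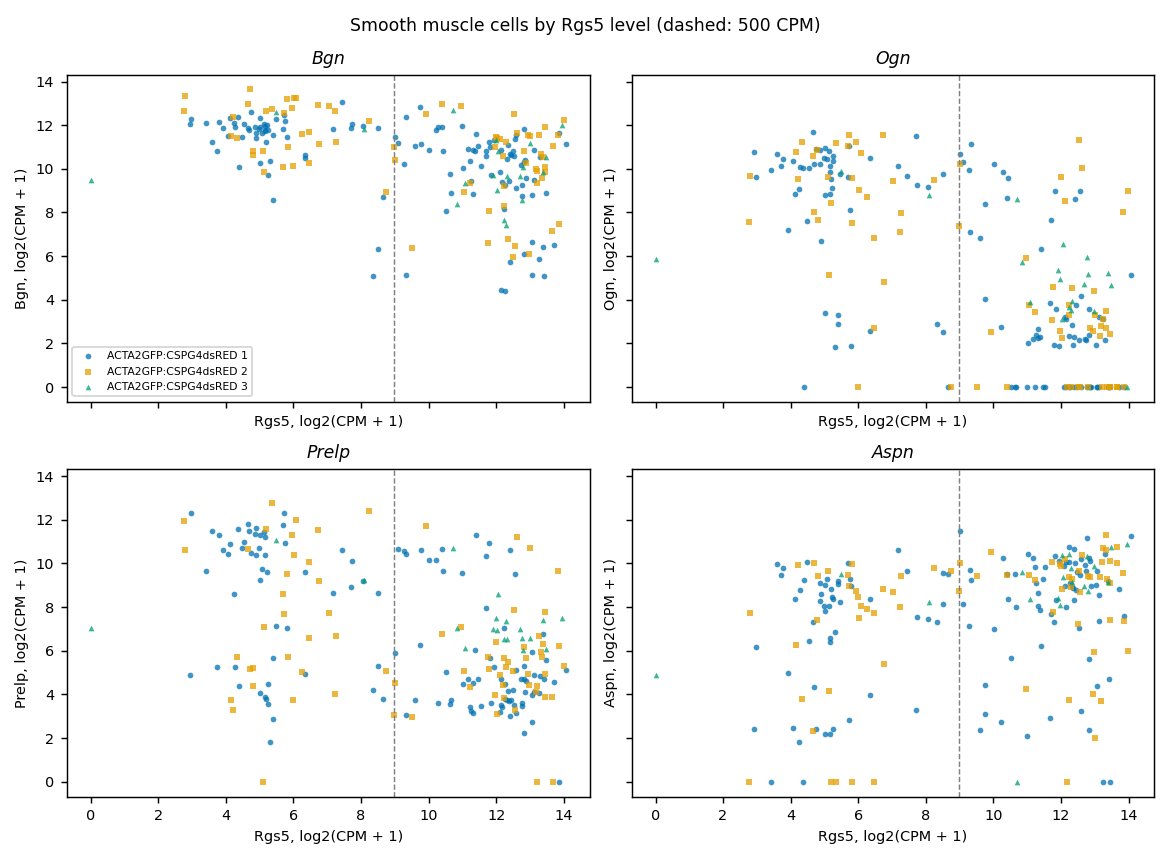
Single smooth muscle cells of the 3 double-reporter mice, with Rgs5 on the horizontal and Bgn, Ogn, Prelp or Aspn on the vertical axis, all as log2(CPM + 1); the dashed line marks 500 CPM of Rgs5. Ogn reaches 100 CPM in most cells left of the line and stays under it in most cells right of it, although 68.9% of the latter hold a count. Aspn is present on both sides.

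Markers of other cell types moved with the Rgs5 split as well. The pericyte list summed to 1080 and 1608 CPM in Rgs5-low and to 3271, 4520 and 4107 CPM in Rgs5-high cells. The fibroblast list summed to 3777 and 3667 CPM in Rgs5-low cells and to 1659, 2619 and 717 CPM in Rgs5-high cells, and the part of either list in the differences of the members was not tested. When mural cells with at least 50 CPM of Dpt + Pi16, genes that define fibroblasts, were left out, an alternative chosen after seeing the data, the change of Bgn was 1.33 (edgeR adjusted p = 0.0757), that of Prelp 2.40 (edgeR adjusted p = 0.0102) and that of Ogn 2.80 (edgeR adjusted p = 0.0627). That filter removed 48 of 207 mural cells of mouse 1, 12 of 100 of mouse 2 and 28 of 32 of mouse 3, so that it left no mural sum of mouse 3.

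Pericytes were compared with smooth muscle cells as the other mural type. The mean level of Aspn was highest there of all classes, and that of Ogn was close to its mean in Rgs5-high cells. None of the 10 members passed the test, while 3 had an unadjusted p under 0.05 in edgeR and DESeq2 called 1. In this comparison 0.735% of genes were called higher and 0.618% lower in smooth muscle. The median change (smooth muscle minus pericytes) of the 9 members other than Kera was 0.12, beside 0.15 over all genes.

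Aspn was at 1227, 1216 and 795 CPM in pericytes of mice 1, 2 and 3, against 354 to 373 CPM in Rgs5-low and 635 to 848 CPM in Rgs5-high cells. Pericytes of mouse 3 overlapped the Rgs5-high range, and the change was -1.03 (SE 0.311, edgeR adjusted p = 0.137). Per kb of exon, Aspn (458 ± 105) and Bgn (424 ± 112) had the highest levels of the family in pericytes and did not differ beyond their spread. In Rgs5-high cells the same pair led (311 ± 45.8 and 286 ± 86.3), whereas Rgs5-low cells had Bgn (712 ± 227) ahead of Ogn (402 ± 46.7), Prelp (400 ± 45.5) and Aspn (154 ± 5.71).

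Ogn was at 72.8, 131 and 229 CPM in pericytes, and the change of 1.64 (SE 0.521) had an edgeR adjusted p of 0.159. Bgn, at 1807, 2906 and 3054 CPM, lay between both smooth muscle levels (0.12, SE 0.143, edgeR adjusted p = 0.796). Dcn, at 613, 1835 and 2531 CPM, and Lum, at 263, 772 and 1120 CPM, came from few cells. A single cell gave 63.6% of the Dcn counts of mouse 2 and 46.7% of those of mouse 3, and the median pericyte had 57.8, 126 and 484 CPM of Dcn. The fibroblast list summed to 2311, 3435 and 3804 CPM in the same cells.

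The direction for Dcn and Lum changed with the cells kept. An alternative chosen after seeing the data left out the Dpt + Pi16 cells, which leaves mural sums of mice 1 and 2. This filter dropped smooth muscle cells and mouse 3 as well, so it does not tell which cells set the direction. With it, Dcn was higher in smooth muscle (1.87, edgeR adjusted p = 0.0194, against -1.29 and 0.227 with all cells). Lum turned from -1.26 to 3.60 (edgeR adjusted p = 0.104). Ogn (3.26, edgeR adjusted p = 0.00197) and Prelp (2.25, edgeR adjusted p = 0.00102) then passed the threshold as well, and Aspn was at -1.55 (edgeR adjusted p = 0.0503). Leaving out mouse 3 alone called Ogn (2.29, edgeR adjusted p = 0.0206) and Aspn (-1.23, edgeR adjusted p = 0.0492).

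**Figure D5:**
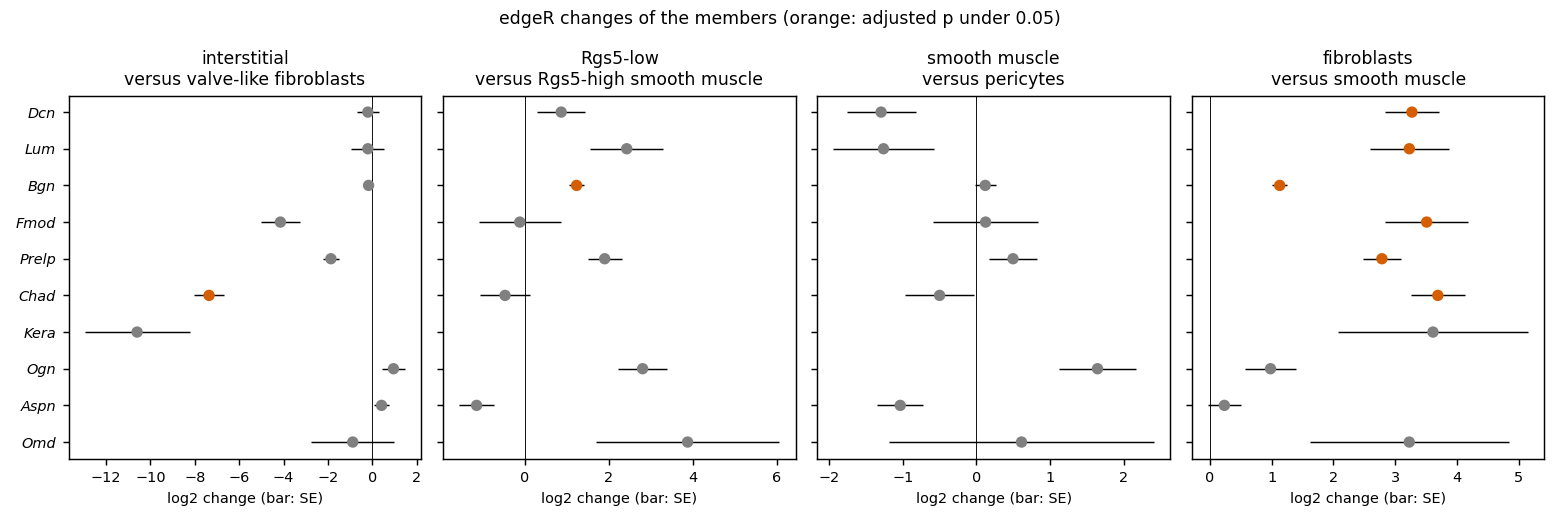
Log2 changes of the members with their SE (bars) in the 4 comparisons, first class minus second, with members called at an edgeR adjusted p under 0.05 in orange. Kera has no value in the middle panels, where both classes are at or under 3 counts in nearly all sums, and the called members are Chad in the first, Bgn in the second, none in the third and 6 in the last comparison.

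Outside fibroblasts and mural cells the family was reduced to a few members. Endocardial cells, the lining of the heart chambers, came from the C57BL/6 mouse alone (63 cells, no replicate). They had 1588 CPM of Dcn, 645 of Lum, 469 of Prelp and 2640 of Bgn, but 0.194 CPM of Ogn, 0.340 of Aspn and 0.0486 of Fmod, and no count of Omd or Kera. Of the 63 cells, 45 reached 100 CPM of Dcn and 62 of Bgn. The fibroblast markers summed to 228 CPM there, nearly all from Col1a2, Col3a1 and Pi16 together, with Col1a1 at 0 and Dpt at 0.146 CPM. The valve list summed to 1102 CPM in the same cells, with Comp at 563 CPM and Hapln1 at 0. The mesothelial list summed to 981 CPM, of which Gpm6a gave 944 and Krt8 0.0486 CPM, against 132 CPM in endothelial cells. The part of these lists in the endocardial levels was not tested. For every 100 counts of Dcn they held 0.0122 of Ogn, against 14.002 to 23.6 in interstitial fibroblasts.

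Endothelial cells of the same mouse (186 cells) had 98.6 CPM of Dcn and 229 CPM of Bgn, with median cells at 8.69 and 12.2 CPM, and 0 counts of Fmod in 186 cells. Schwann cells, the glia of peripheral nerves, had Bgn as their main member, at 1531, 1825 and 1066 CPM, which made up 91.8%, 87.0% and 72.3% of their counts for the family. Aspn in Schwann cells was at 3.37, 3.86 and 3.47 CPM. The fibroblast list summed to 4072, 4417 and 2116 CPM in Schwann cells, and its part in their Bgn level was not tested. Immune cells of mouse 3 (30 cells) had 96.7 CPM of Bgn and 207 CPM of Dcn. Their Dcn was no higher than in Schwann cells of that mouse, and Dcn of endothelial cells lay within the range of Schwann cells. Neither level is read as a mark of its class, and their source was not tested.

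Members were also compared with each other across cells and sums, as a description. Within valve-like cells, Fmod and Prelp had a Spearman rho of 0.711 (median of 3 mice, 0.603 to 0.734, 26 to 43 cells each), and Dcn and Bgn 0.569 (0.239 to 0.581). In interstitial cells of 2 mice Fmod and Prelp had 0.0719. For smooth muscle, Rgs5-low and Rgs5-high cells were pooled. There Dcn and Lum had 0.713 (0.554 to 0.787), Ogn and Bgn 0.557 (0.338 to 0.664), and Ogn and Aspn -0.243 (-0.525 to -0.143). Levels of Ogn, Bgn and Aspn differed between the Rgs5 classes, so these values are not separate from that split. Cells of a mouse share a plate and differ in depth.

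Over the 17 sums of mouse and class, neighbours in the genome varied in their likeness. Dcn and Lum had a Pearson r of 0.902 and Prelp and Fmod 0.880, while Kera, next to Lum, had 0.480 with it, and Aspn, in 1 cluster with Ogn and Omd, had -0.515 with Ogn and -0.233 with Omd. The third pair of that cluster, Omd and Ogn, had 0.716. The genes most like Chad were Mall, Angptl7 and Fgf9 (r = 0.961, 0.959 and 0.959), of which Angptl7 is a gene of the valve gate. For Ogn they were Ecm1, Fstl1 and Rcn3 (0.898, 0.882 and 0.879), for Fmod Gm42793, Spp1 and Gm29233 (0.910, 0.908 and 0.895), and for Prelp Gm15851, Frzb and Vim (0.996, 0.942 and 0.934). Gm15851 is the antisense gene that shares exonic bases with Prelp, and reads from that stretch cannot be told apart. Those of Dcn were Gm16897, Mmp2 and Fxyd6 (0.961, 0.952 and 0.946), those of Lum Fbln1, Serpinf1 and Cd34 (0.963, 0.953 and 0.9498), and those of Bgn Col1a2, Col1a1 and Scd1 (0.907, 0.895 and 0.891). Omd was most like Ankrd29, Itgbl1 and Abhd13 (0.920, 0.878 and 0.857). Aspn had no close counterpart: Spry2, Chn1os3 and Thy1 reached 0.782, 0.762 and 0.753. The matches of Kera rest on the same 5 cells and are not named. The 17 sums share mice and plates, and no p is given.

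The partners of the family were read from gene lists for their collagens, enzymes and receptors. In fibroblasts against smooth muscle, 10 of 15 fibrillar collagen and assembly genes were higher and none lower (median change 3.27), beside 2.41% of all genes called higher and a median of 0.17. They were led by Thbs4, a thrombospondin (7.002, SE 1.17, 412 against 2.64 CPM, edgeR adjusted p = 0.00225). Col12a1, a collagen on fibril surfaces (184 against 3.85 CPM, edgeR adjusted p = 0.0101), and Comp, the cartilage oligomeric matrix protein (1351 against 16.7 CPM, edgeR adjusted p = 0.000495), followed. The fibroblast means rest mostly on valve-like cells for Thbs4 and Comp. Thbs4 was at 380 to 914 CPM in valve-like and 0.297 to 451 CPM in interstitial sums. Comp was at 1852 to 3082 CPM and 81.6 to 493 CPM. Of the relatives of the family, 6 of 8 were tested and Epyc was higher (6.71, 128 against 0.553 CPM, edgeR adjusted p = 0.00660). Epyc too was mainly valve-like, at 185 to 289 CPM there and 0.892 to 71.9 CPM in interstitial sums. Of the cross-linking enzymes 1 of 8 was higher, the lysyl oxidase-like Loxl1 (1141 against 295 CPM, edgeR adjusted p = 0.0144). Of 5 tested proteases 1 was higher, the gelatinase Mmp2 (2309 against 114 CPM, edgeR adjusted p = 2.24e-05). Of 10 tested ligands and receptors 1 was higher, the endocytic receptor Lrp1 (779 against 199 CPM, edgeR adjusted p = 0.00882). Lists of this size with 1 called gene are read only against that share of 2.41%.

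Enzymes that build the sugar chains held no called gene, which at these background shares says little about them. Of 20 genes for the linker and for chondroitin or dermatan sulfate, and of 5 tested genes for keratan sulfate, none was called in any of the 4 comparisons (median changes of 1.31 and 0.55 in fibroblasts against smooth muscle, where the median over all genes was 0.17). Between smooth muscle and pericytes, Lox, a lysyl oxidase, was higher (78.4 against 0.352 CPM, edgeR adjusted p = 0.0388). Col5a3, a minor fibrillar collagen (8.67 against 231 CPM, edgeR adjusted p = 0.0273), and Mmp2 (114 against 651 CPM, edgeR adjusted p = 0.0150) were lower. No list had a called gene between the fibroblast types or between the Rgs5 levels.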

How the data were processed

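Whole-number counts per gene and cell were used as deposited by the authors. The submitters' processing notes name GRCm38 (mm10) and the tools featureCounts, Subread, Bowtie2, Bowtie and bcl2fastq. Their versions and any strand option are not given in the sources used here. Cells were gated by marker genes, counts were summed per mouse and class (at least 5 cells), and CPM scales these counts to 1000000 per sum. The mouse was the replicate.

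One edgeR 4.0.16 quasi-likelihood fit (R 4.3.3, TMM, filterByExpr, 17 sums of 6 classes, mouse as a block) tested 16333 genes in 4 comparisons, with Benjamini-Hochberg adjustment at 0.05. Classes came from the same animals, which gives the pairing; deviations of same-mouse sums correlated between -0.026 and 0.110 over 40 pairs. DESeq2 1.42.0 and the other alternatives stand in the closing section. Intervals of ratios and shares are exact at 95% and cover counting error only. Prose names all members, the 3 genes most like each, and at most 3 called genes per list with an average log2 CPM of at least 3, ranked by the size of the change. The members and lists were chosen with earlier results of these data known. The 11 cells of 4 mice, mixed and ungated cells were left out of tests. Depth was 50476 to 811982 counts per cell, and Python 3.11.15 was used for sums and figures.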

Additional observations from a re-analysis of the deposited data

Results flagged for a closer look

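The 11 cells of the 4 mice with few cells entered no comparison, and 8 of the 10 members had more counts there than the limit of 3 that a count of 0 allows. Summed over these cells there were 1001 counts of Dcn, 135 of Lum and 601 of Bgn. There were 83 counts of Fmod, 225 of Prelp and 205 of Ogn. Aspn had 113 counts and Chad 30. The cells are of several classes and strains, so these sums describe no group.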

How the results depend on the processing

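Of the called members, Chad between fibroblast types and Dcn, Prelp and Bgn between fibroblasts and smooth muscle were called in all 16 alternatives, Lum in 15, Fmod in 14 and Chad in 15 (with mixed cells kept as mural its adjusted p was 0.0578). The cause of the changes below was not tested.

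Between interstitial and valve-like fibroblasts 26 genes were called, and 1 of them was a member. DESeq2 called 321 genes and 4 members, no filter on low counts 42 and 3, sums of at least 10 cells 53 and 2, a fit of only the classes compared 11 and 2, and cells thinned to 50000 counts 42 and 2. Gates applied literally called 5 genes and mixed cells kept as mural 14, and leaving out Dpt or Pi16 cells, chosen after seeing the data, called 3 members. Without 1 mouse there were 1 to 20 genes and 1 to 2 members, the fewest genes without mouse 2. Lum turned to 0.091 with at least 10 cells. Omd turned to 0.69 with only the classes compared, 0.31 without the block, 0.55 without Dpt or Pi16 cells, and lay between -1.43 and 1.78 without 1 mouse (1.78 without mouse 3).

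Between Rgs5-low and Rgs5-high cells 12 genes were called, 1 of them a member. DESeq2 called 211 genes and 3 members, no filter 27 and 3, only the classes compared 1 and 0, an Rgs5 threshold of 1000 CPM 7 and 2, literal gates 1 and 0, mixed cells 22 and 2, and thinned cells 20 and 2. At least 10 cells gave 2 members, the strict cell filter 4 genes and the Dpt or Pi16 filter 6 genes. Without 1 mouse there were 0 to 3 genes and 0 members. Fmod turned to 0.50 (10 cells), 0.98 (only the classes compared), 0.91 (no block), 0.10 (Rgs5 at 200 CPM), 1.03 (mixed cells) and 0.75 (Dpt or Pi16), and lay between -1.76 and 1.17 without 1 mouse (0.10 without mouse 1). Chad turned to 3.24 with mixed cells and 0.10 without Dpt or Pi16 cells.

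Between smooth muscle and pericytes 221 genes and 0 members were called. DESeq2 called 1517 genes and 1 member, thinned cells 341 and 1, and the Dpt or Pi16 filter 439 and 3. Without 1 mouse there were 27 to 200 genes and 0 to 2 members. Fmod turned to -0.63 (10 cells), -0.049 (only the classes compared), -0.11 (no block), -0.78 (mixed cells), -0.16 (thinned), and lay between -0.87 (without mouse 3) and 0.80 without 1 mouse. Omd turned to -0.81 with Rgs5 at 1000 CPM and -1.87 with mixed cells and lay between -0.92 (without mouse 1) and 4.46 without 1 mouse. Chad turned to 1.54 with mixed cells and lay between -1.01 and 0.33 (without mouse 2). Mixed cells also turned Ogn to -0.37, Prelp to -1.24 and Bgn to -0.38. Without Dpt or Pi16 cells Dcn was at 1.87 and Lum at 3.60.

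Between fibroblasts and smooth muscle 853 genes were called, 1921 by DESeq2 and 165 to 644 without 1 mouse. Without the mouse block (no pairing) 21, 15, 230 and 867 genes were called in the 4 comparisons, and Bgn between Rgs5 levels was the only called member to lose its call. Member levels taken as the mean of cells' CPM moved by more than 1 SD in 4 of 80 cases. Shares of cells with a count left their 95% interval in 47 of 80 cases after thinning. The 2 Rgs5-low sums and unequal cell numbers limit the tests.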

Other observations

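Relatives of the family also differed between classes; they were picked after their values were seen and none was called by edgeR in these comparisons. Podn (podocan, another leucine-rich repeat protein of the matrix) was at 98.8 to 412 CPM in interstitial and 0.603 to 12.9 CPM in valve-like fibroblasts of the 3 mice, without overlap. Optc (opticin, next to Prelp in the genome) was at 25.6 and 41.4 CPM in Rgs5-low smooth muscle cells and at 0 to 5.39 CPM in Rgs5-high cells. One interstitial sum reached 33.9 CPM of Optc.

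Cells outside the comparisons were rich in the family. Of all counts, the 10 genes took 1.66% ± 0.541 (SD, n = 3 mice) in cells that passed gates of more than 1 family and 2.07% ± 0.548 (n = 2) in cells that passed none.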
